A study of Mus musculus with 6 samples.

Results

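The KIT system of spermatogonia was examined through 6 genes in mouse testis at postnatal day 5: the receptor gene Kit, the gene of its ligand Kitl, and the transcription factor genes Sohlh1, Sohlh2, Lhx8 and Figla. They were chosen by symbol, and all 6 were found among the 57170 gene identifiers of the deposited table. Of these, 4 (Kit, Kitl, Sohlh1 and Sohlh2) had enough counts to be tested with 17707 genes in all, while Lhx8 and Figla did not. The 6 libraries were made from polyadenylated RNA of whole testis. The WT group held 2 libraries, WT-1 and WT-2, of wild-type mice. The sKO group held 4 libraries, sKO-1 to sKO-4, of mice in which Mdm2, the ubiquitin ligase gene that restrains p53, was conditionally deleted in germ cells that had not entered meiosis. The promoter that drove the deletion, the strain and the number of animals per library are not stated in the labels. The p-values therefore reflect library-to-library spread, which may be technical. The comparison asked how the receptor and its germ cell regulators stood beside the somatic ligand when Mdm2 was removed from germ cells.

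KIT is a receptor tyrosine kinase that appears on spermatogonia as they begin to differentiate, and in the neonatal testis it is also made by Leydig cells. Its ligand, the stem cell factor KITL, is made by Sertoli cells, the somatic nurse cells of the seminiferous cords, in membrane-bound and shed forms. SOHLH1 and SOHLH2 are basic helix-loop-helix proteins of germ cells that are required for spermatogonial differentiation and for the early growth of oocytes, and such proteins bind a short DNA motif called the E-box. LHX8, a LIM homeodomain protein, and FIGLA, another basic helix-loop-helix protein, are best known from oocytes.

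Because the helix-loop-helix factors bind E-boxes, the promoters of the 6 genes were searched for CANNTG, where N is any base, on both strands. The sequences came from RefSeq on build GRCm38.p6, which is not the build of the counts, and all 6 genes matched. Each window ran from 250 bases before to 50 bases after the start of the most upstream transcript. The Sohlh1 window held 5 matches, a number reached by 2.10% of all 32851 promoters of the table, and 3 of them read CACGTG, a number reached by 0.0883%. The 250 bases upstream of Sohlh1 are shown for that reason, with every CANNTG in capitals, and span chr2:25847249-25847498 on the minus strand.
Sohlh1: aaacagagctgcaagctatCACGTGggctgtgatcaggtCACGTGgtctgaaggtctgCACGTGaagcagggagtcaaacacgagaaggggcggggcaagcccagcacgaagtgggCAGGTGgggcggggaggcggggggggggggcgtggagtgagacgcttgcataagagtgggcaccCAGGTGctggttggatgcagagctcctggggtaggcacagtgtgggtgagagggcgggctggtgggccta
The windows of Kit, Kitl and Sohlh2 held 1 match each, a number reached by 72.3% of promoters, and that of Figla held 4, a number reached by 6.49%. The Lhx8 window held 0, which says only that these letters do not occur there. The 30 bases around the matches of Kit (chr5:75574983-75575012, plus strand), Kitl (chr10:100015819-100015848, plus strand), Sohlh2 (chr3:55181794-55181823, plus strand) and the first pair of Figla (chr6:86017006-86017035, plus strand) are shown to set them beside those of Sohlh1.
Kit: ccgcgctcggtgCACTTGggcgagagctgt
Kitl: cagccggggcttCATTTGctgtctgtcacc
Sohlh2: cacaggcgtCAGATGggagtattttatcag
Figla: ccacctcgcactCAGGTGcgtCAAGTGtgt
None of these other 5 windows held CACGTG, which occurs in 7.15% of promoters. The GC-box GGGCGG, searched on both strands, occurred 3 times in the Sohlh1 and Kitl windows, 4 times in that of Figla, 1 time in those of Kit and Sohlh2 and 0 times in that of Lhx8, against 35.7% of promoters with at least 1. A match is a description of the sequence, and binding was not measured here.

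The libraries held 17990837 to 18394437 expected counts each. Mdm2 itself was at 67.2 and 75.9 CPM (counts scaled to library size with TMM factors) in WT and at 37.6 to 47.3 CPM in sKO, a fall of 0.74 on the log2 scale (SE 0.11, edgeR adjusted p = 0.0241). The tissue label was matched by its markers. The summed level of 18 Sertoli cell genes was 7104 and 8687 CPM in WT and 8251 to 9428 CPM in sKO. That of 19 genes expressed across germ cells was 1093 and 766 CPM in WT and 133 to 232 CPM in sKO, and all 19 fell. The first principal component (38.1% of the variance) did not follow genotype: it put sKO-1 and sKO-2 with WT-1 (subset 1), and sKO-3 and sKO-4 with WT-2 (subset 2), a split that the labels do not name. Values within each subset, which holds 1 WT and 2 sKO libraries, are therefore given beside the main results. The subsets were drawn from these same counts, so p-values and numbers of genes called with the subset as a term are descriptive only. The second principal component (32.6% of the variance) did separate the genotypes, with WT at 31.3 and 52.9 and sKO from −36.9 to 0.006. In bulk tissue, fewer cells of a type and less RNA per cell cannot be told apart.

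Sohlh1 and Sohlh2, the germ cell regulators, fell in sKO testes. Sohlh1 was at 14.95 CPM in WT-1 and 10.6 CPM in WT-2, and at 2.17, 1.12, 1.16 and 1.62 CPM in sKO-1 to sKO-4. The groups were far apart: every sKO library was far below either WT library, and the sKO values rest on 20 to 41 counts each. The mean went from 12.8 ± 3.08 CPM (SD, n = 2) to 1.52 ± 0.490 CPM (SD, n = 4), which is 11.9% of the WT mean, a log2 fold change of −3.07 (SE 0.31, 95% confidence interval −3.78 to −2.36, edgeR adjusted p = 0.00970). Only 44 of the 17707 genes had a lower log2 fold change than Sohlh1. Sohlh2 was at 25.9 CPM in WT-1 and 23.4 CPM in WT-2, and at 7.78, 4.82, 5.43 and 7.74 CPM in sKO-1 to sKO-4, again with no overlap. Its mean went from 24.7 ± 1.75 CPM (SD, n = 2) to 6.44 ± 1.54 CPM (SD, n = 4), which is 26.1% of the WT mean (log2 fold change −1.94, SE 0.22, interval −2.45 to −1.43, edgeR adjusted p = 0.0110). The same test called 2.43% of all genes, 2.30% lower and 0.124% higher. Both falls were of like size within the library subsets, at −3.21 and −2.93 for Sohlh1 and at −2.07 and −1.84 for Sohlh2. Without WT-1, when WT is left with 1 library, both calls were lost (edgeR adjusted p = 0.117 for Sohlh1 and 0.142 for Sohlh2) while the log2 fold changes were −2.80 and −1.86.

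**Figure D1:**
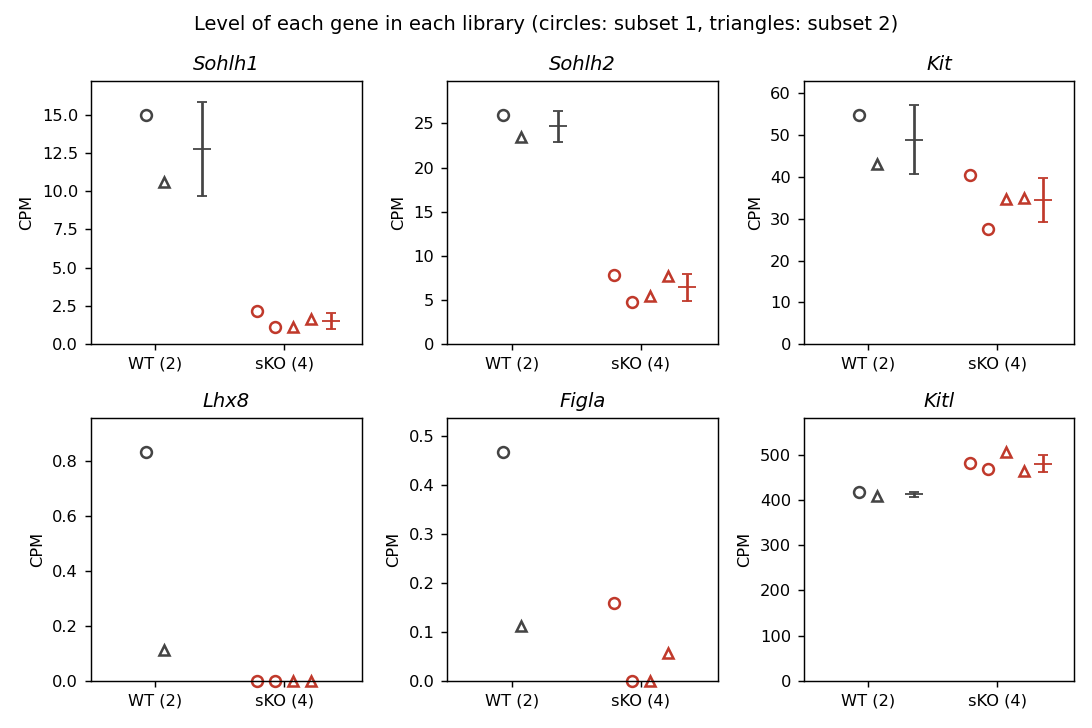
Level of each of the 6 genes in CPM (vertical axis, linear, from 0) in the 2 WT and 4 sKO libraries; each point is a library, circles are subset 1 and triangles subset 2, and the bars beside the points are mean ± SD, left out for Lhx8 and Figla. Sohlh1 and Sohlh2 are far lower in sKO, Kit is lower by a smaller step, Kitl lies above WT in all 4 sKO libraries, and Lhx8 and Figla are below 1 CPM throughout.

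Kit was lower in sKO by much less than its regulators and did not pass the test. It was at 54.7 CPM in WT-1 and 43.0 CPM in WT-2, and at 40.5, 27.6, 34.7 and 34.96 CPM in sKO-1 to sKO-4. The highest sKO library lay just under the lower WT library, so the groups did not overlap but came close. Groups did not overlap in that direction at 13.3% of all genes tested. Its WT mean of 48.9 ± 8.26 CPM (SD, n = 2) stood against an sKO mean of 34.4 ± 5.27 CPM (SD, n = 4), or 70.5% of WT. The log2 fold change was −0.51 (SE 0.17, interval −0.89 to −0.12, edgeR adjusted p = 0.222). The difference was −0.71 within subset 1 and −0.31 within subset 2. With the library subset as a term, added after seeing the data, Kit was at −0.50 (SE 0.14, edgeR adjusted p = 0.0492). That fit called 8.65% of all genes lower. Its subsets were drawn from these same counts, so this p-value is not an independent test. Kit also stood apart from the genes expressed across germ cells, whose log2 fold changes ran from −2.83 to −1.70 and included Ddx4 (−2.31), a germ cell RNA helicase, and Dazl (−2.34), an RNA-binding protein, both named after their values were seen. Gene counts do not separate full-length Kit from its shorter transcripts.

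Other cells that make KIT were measured in the same libraries. The summed level of 10 Leydig cell genes was 1009 and 1204 CPM in WT and 1104 to 1554 CPM in sKO, overlapping, with 0 of 10 past the edgeR test, 0 of 10 at an unadjusted p under 0.05 and all 10 log2 fold changes above 0 (0.17 to 0.89). The summed level of 10 mast cell genes was 28.1 and 36.1 CPM in WT and 20.3 to 27.2 CPM in sKO, with 0 of the 7 tested members called, 2 of them at an unadjusted p under 0.05, a median log2 fold change of −1.31, and the receptor chain gene Fcer1a at 0 counts in all 6 libraries. A large part of that sum was Hdc, the histidine decarboxylase gene, at 19.7 and 15.1 CPM in WT and 13.4 to 21.8 CPM in sKO (0.06, edgeR adjusted p = 0.955), while the protease genes Tpsb2 (−2.30) and Cma1 (−1.95) were lower on average without passing (edgeR adjusted p = 0.177 and 0.337; all named after their values were seen). The summed level of 8 melanocyte genes was 12.8 and 9.35 CPM in WT and 6.67 to 7.44 CPM in sKO. Of these, 0 of 5 tested members were called, 2 had an unadjusted edgeR p under 0.05, and the median log2 fold change was −0.73. The mast cell and melanocyte sums both lay below both WT libraries in all 4 sKO libraries. Among single genes, 1 of 7 mast cell and 3 of 5 melanocyte genes did so, as did 13.3% of all genes tested. The part of these cells in the Kit level was not tested. Of all 17707 genes tested, 2317 had an unadjusted edgeR p under 0.05.

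Kitl, the somatic ligand gene, was the most abundant of the 6 and lay slightly higher in sKO. It was at 417 CPM in WT-1 and 409 CPM in WT-2, and at 481, 468, 506 and 464 CPM in sKO-1 to sKO-4. All 4 sKO libraries were above both WT libraries, as they were at 9.79% of all genes tested. The WT mean was 413 ± 5.76 CPM (SD, n = 2) and the sKO mean, at 480 ± 18.9 CPM (SD, n = 4), was 16.3% higher, a difference that did not pass the test (log2 fold change 0.22, SE 0.08, interval 0.03 to 0.41, edgeR adjusted p = 0.308). It was 0.16 within subset 1 and 0.24 within subset 2. With the subset as a term it was 0.22 (SE 0.05, edgeR adjusted p = 0.0266), in a fit that called 4.97% of all genes higher. As for Kit, this p-value is not an independent test. When each library was scaled by its Sertoli cell gene sum, which shifts the median of all genes by −0.17, the log2 fold change of Kitl was 0.04 (SE 0.11, edgeR adjusted p = 0.940). Gene counts do not separate the transcripts of its membrane-bound and shed forms.

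**Figure D2:**
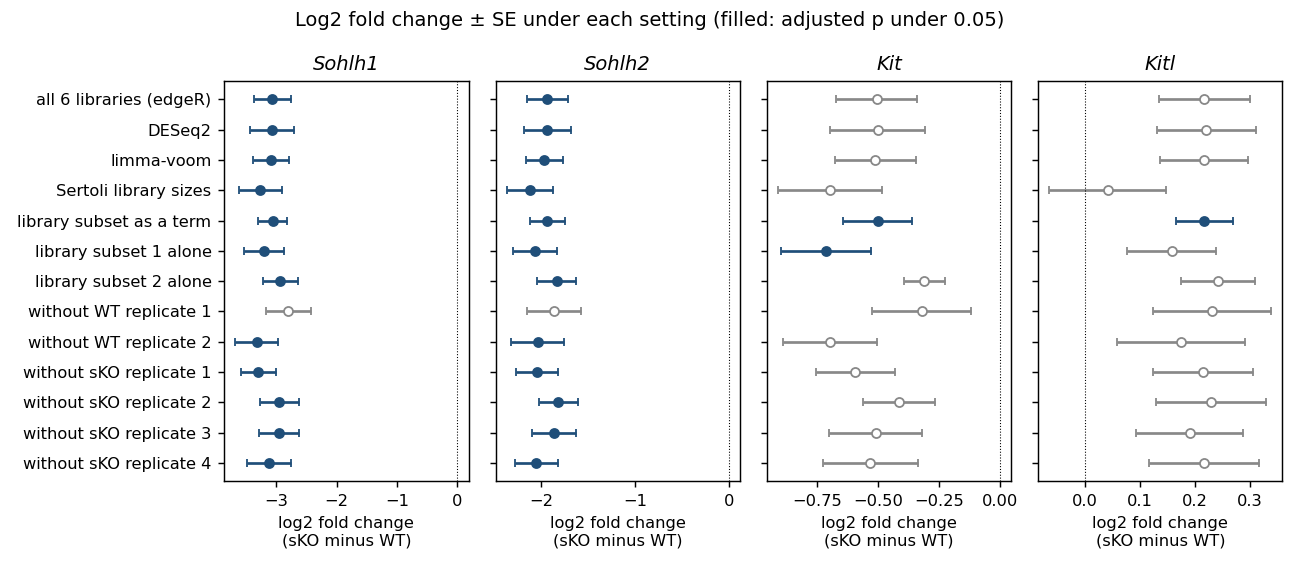
Log2 fold change of sKO against WT with its SE (horizontal axis, a separate scale for each gene) for the 4 tested genes under each setting listed on the left; filled points have an adjusted p under 0.05. Sohlh1 and Sohlh2 stay far below 0 and are filled in each setting shown except the one without WT replicate 1. Kit is filled with the subset term and in subset 1 alone, and Kitl with the subset term. The subsets were drawn from these same counts and each holds 1 WT library, so those settings are not independent tests.

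Lhx8 and Figla, the genes best known from oocytes, were near the limit of detection. Lhx8 had 16 counts in WT-1, 2 in WT-2 and 0 in each of the 4 sKO libraries. A count of 0 allows up to 0.195 to 0.213 CPM in a single sKO library (upper end of the exact Poisson 95% interval). WT-2 was at 0.113 CPM (exact Poisson 95% interval 0.0136 to 0.407, counting error only), so the difference rests on WT-1. Over the groups, 18 counts in WT gave 0.486 CPM (exact Poisson 95% interval 0.288 to 0.769, counting error only). The floor of 3 counts over the 4 sKO libraries is 0.0416 CPM, and the pooled WT value was 11.7 times that floor. WT-1 alone was at 19.99 times the floor and WT-2 alone at 2.71 times. With the counting error of both groups, the ratio of sKO to WT was 0 with an upper limit of 0.117 (95% Clopper-Pearson of the pooled counts, counting error only). This limit too rests mostly on WT-1. Figla had 9 counts in WT-1 and 2 in WT-2, and 3, 0, 0 and 1 in sKO-1 to sKO-4. Its groups overlapped, since sKO-1 (0.159 CPM) was above WT-2 (0.113 CPM). The ratio of the group levels, sKO over WT, was 0.186 (0.0433 to 0.629, 95% Clopper-Pearson interval of the counts, counting error only), with 11 counts against 4.

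Set on a scale per length, the receptor and both SOHLH genes stood at like levels in WT and apart in sKO. Per kilobase of the principal transcript of GENCODE M21, the WT level was 73.1 ± 1.02 CPM for Kitl (SD, n = 2), 10.4 ± 0.739 for Sohlh2, 9.91 ± 2.39 for Sohlh1 and 9.38 ± 1.58 for Kit, the last 3 within their spread of each other. Figla at 0.382 ± 0.330 and Lhx8 at 0.273 ± 0.294 CPM per kilobase were not apart from each other either. In sKO the level per kilobase was 84.9 ± 3.34 CPM for Kitl (SD, n = 4), 6.61 ± 1.01 for Kit, 2.73 ± 0.653 for Sohlh2, 1.18 ± 0.380 for Sohlh1, 0.0713 ± 0.0987 for Figla and 0 counts for Lhx8. In sKO the steps between Kit, Sohlh2 and Sohlh1 were wider than their SDs. The length used matters for Kit, whose exons add up to 8.91 kilobases when all transcripts are joined but to 5.21 kilobases in the principal transcript. With joined exons the WT level of Kit was 5.49 ± 0.927 CPM per kilobase, below both SOHLH genes, and the sKO level was 3.87 ± 0.591, nearer to Sohlh2 than with the principal transcript.

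Ratios of counts within a library do not depend on how libraries are scaled, and 7 were compared by a two-sided exact permutation test over the 15 assignments of the libraries. The smallest p this design allows is 0.0667, so none can reach 0.05, and the Benjamini-Hochberg value over the 7 ratios is 0.0778 for each of the 6 ratios whose groups did not overlap. The log2 ratio of Kit to Kitl was −2.93 and −3.25 in WT and −3.57, −4.08, −3.86 and −3.73 in sKO-1 to sKO-4, a difference of −0.72 (SE 0.19, exact p = 0.0667), lower in 4 of 4 sKO libraries. Kit counts per Kitl count in sKO were 0.605 times those in WT. The difference was −0.90 within subset 1 and −0.55 within subset 2.

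Against the summed genes expressed across germ cells Kit, Sohlh1 and Sohlh2 differed. The log2 ratio of Kit to that sum was −4.32 and −4.15 in WT and between −2.73 and −1.93 in sKO, a difference of 1.84 (SE 0.19, exact p = 0.0667), or a ratio 3.59 times that of WT. Kit was counted in whole testis, where Leydig cells also make KIT, while the sum holds germ cell genes only. This ratio is therefore not a level of Kit within germ cells. The log2 ratio of Sohlh1 to the same sum was −6.19 and −6.17 in WT and between −7.14 and −6.67 in sKO, a difference of −0.73 (SE 0.11, exact p = 0.0667). That of Sohlh2 was −5.40 and −5.03 in WT and between −4.96 and −4.60 in sKO, a difference of 0.39 (SE 0.20, exact p = 0.0667), with the nearest libraries of the 2 groups close together. This last difference was 0.50 and 0.28 within the subsets, 0.20 without WT-1 (exact p = 0.400) and 0.57 without WT-2 (exact p = 0.200). Sohlh1 was lower relative to Sohlh2 in all 4 sKO libraries, by −1.12 (SE 0.20, exact p = 0.0667; −1.16 and −1.08 within the subsets), and Kit was higher relative to Sohlh1 by 2.57 (SE 0.16, exact p = 0.0667). The log2 ratio of Kitl to the summed Sertoli cell genes overlapped between groups, at −4.09 and −4.41 in WT and between −4.34 and −4.12 in sKO, with a difference of 0.05 (SE 0.17, exact p = 0.800).

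**Figure D3:**
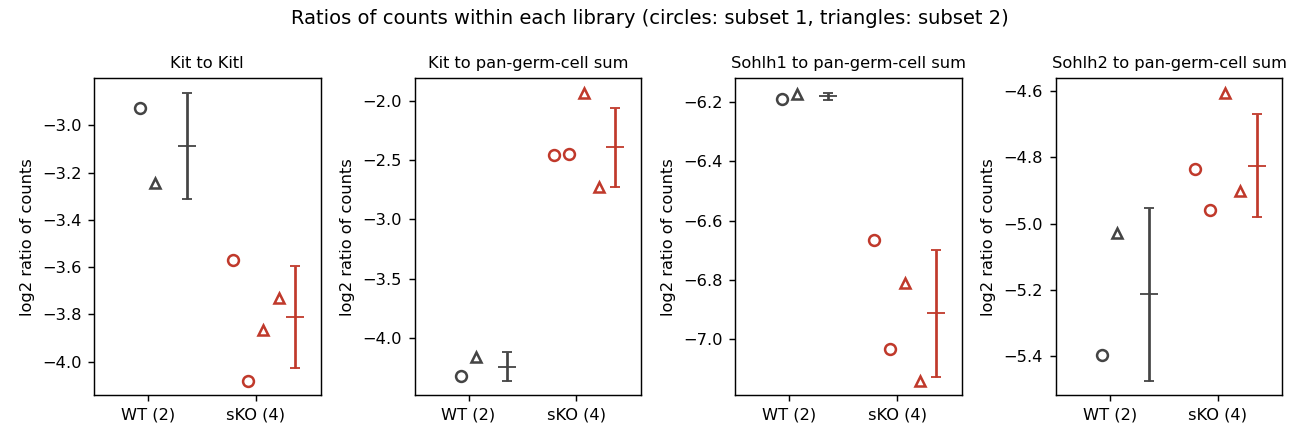
Log2 ratio of counts within each library (vertical axis, a separate scale per panel) for 4 of the ratios in the 2 WT and 4 sKO libraries; points are libraries, circles subset 1 and triangles subset 2, with mean ± SD beside them. In sKO, Kit is lower against Kitl but higher against the summed germ cell genes, while Sohlh1 is lower against the same sum.

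Most spermatogonial genes listed beside the SOHLH factors were lower too. Of 11 such genes, 10 were tested, 8 were called lower and 0 higher. The same test called 2.30% of all tested genes lower, and all 19 of the genes expressed across germ cells. The median was −2.17 on the log2 scale, beside 0.03 for all genes tested, and Taf4b and Stra8 are also in other lists. Sox3, a transcription factor of undifferentiated spermatogonia, was at 15.6 and 7.21 CPM in WT and 0.404 to 1.01 CPM in sKO (−3.95, SE 0.43, edgeR adjusted p = 0.0110). Stra8, a gene induced by retinoic acid, was at 30.2 and 23.9 CPM in WT and 1.18 to 3.29 CPM in sKO (−3.87, SE 0.37, edgeR adjusted p = 0.00929). The synaptonemal complex genes Sycp3 (−2.39) and Sycp1 (−2.20) fell by amounts close to the genes expressed across germ cells. The cyclin gene Ccnd2, which the somatic cells also express, was at 888.8 and 895 CPM in WT and 743 to 1127 CPM in sKO (0.15, edgeR adjusted p = 0.808; named after its values were seen). Neurog3, a helix-loop-helix gene of spermatogonial progenitors, was under the count filter at 0.675 and 0.451 CPM in WT and had 0 counts in all 4 sKO libraries; it was named after its values were seen.

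Among 26 dimer partners of helix-loop-helix proteins and regulators linked to Kit, 25 were tested, 4 were lower and 0 higher (median −0.02; 7 lower and 3 higher with the subset term; 8 at an unadjusted p under 0.05). The lower genes were Stra8, the zinc finger repressor Zbtb16 (−2.25, SE 0.28, edgeR adjusted p = 0.0138), Sall4 (−2.06, SE 0.32, edgeR adjusted p = 0.0235) and Tfap2c (−3.12, SE 0.49, edgeR adjusted p = 0.0245), all 4 of them germ cell genes. The sKO level of Tfap2c rests on 2 to 4 counts per library. Beside the counts of this list, 2.30% of all tested genes were called lower by the main test. With the subset term 8.65% of all genes were lower and 4.97% higher. An unadjusted edgeR p under 0.05 was found for 2317 of 17707 genes. Tcf3 and Tcf12, widely expressed helix-loop-helix genes of this list, were at −0.02 and 0.12 and did not pass (edgeR adjusted p = 0.972 and 0.662, both named after their values were seen).

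Of 20 genes of the oocyte programme in which these factors act, 9 were tested, 1 was lower and 0 higher (median −0.10). The lower gene was Taf4b, a subunit of a germ cell form of the general transcription factor TFIID, from 35.8 ± 0.767 to 18.3 ± 1.82 CPM (−0.97, SE 0.13, edgeR adjusted p = 0.0152). The other 11 genes, among them the zona pellucida genes Zp1, Zp2 and Zp3, were under the count filter. With the subset term 3 of the 9 were lower and 0 higher, and 4 had an unadjusted p under 0.05. Over all genes the subset term called 8.65% lower and 4.97% higher. The main test called 2.30% of all genes lower, and 2317 of 17707 had an unadjusted edgeR p under 0.05. Of 13 LIM homeobox and cofactor genes, 7 were tested and 0 passed (4 at an unadjusted edgeR p under 0.05; median 0.14; 0 lower and 2 higher with the subset term). The most abundant were the cofactor gene Ldb1 (0.14, SE 0.11, edgeR adjusted p = 0.698) and Lhx9, a gene of the somatic gonad, at 52.3 and 65.7 CPM in WT and 76.1 to 87.2 CPM in sKO (0.42, SE 0.12, edgeR adjusted p = 0.151). At Lhx9 all 4 sKO libraries were above WT, as at 9.79% of all genes. In all, 3 of the 7 had sKO above WT without overlap and 2, Lhx1 (−0.93) and Lhx2 (−1.33), had sKO below WT (edgeR adjusted p = 0.362 and 0.302, both named after their values were seen). All 4 sKO libraries lay below both WT libraries at 13.3% of all genes tested.

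The signalling genes downstream of KIT did not pass the test. Of 48 genes of KIT adaptors, lipid kinases and regulators, all were tested, 0 were lower and 0 higher (edgeR; 5 at an unadjusted p under 0.05, where 2317 of all 17707 genes were; median 0.05; 3 lower and 3 higher with the subset term). Among the most abundant, the phospholipase gene Plcg1 was at 0.18 (SE 0.11, edgeR adjusted p = 0.554). Many of these genes are widely expressed, in somatic as in germ cells. The fit with the subset term called 8.65% of all tested genes lower and 4.97% higher. Of 13 genes linked to the shedding or release of KITL, 0 passed (2 at an unadjusted p under 0.05; median 0.24; 1 lower and 2 higher with the subset term), and the most abundant, the matrix metalloprotease genes Mmp14 and Mmp2, were at 0.29 (SE 0.10, edgeR adjusted p = 0.250) and 0.06 (SE 0.13, edgeR adjusted p = 0.921). Of 11 genes of the other receptors of the KIT class and their ligands, 0 passed (1 at an unadjusted p under 0.05; median 0.19; 0 lower and 3 higher with the subset term). Pdgfra, a receptor of stromal cells, was at 545 and 710 CPM in WT and 686 to 979 CPM in sKO (0.37, SE 0.18, edgeR adjusted p = 0.470). Its ligand gene Pdgfa was at 0.26 (SE 0.13, edgeR adjusted p = 0.474).

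**Figure D4:**
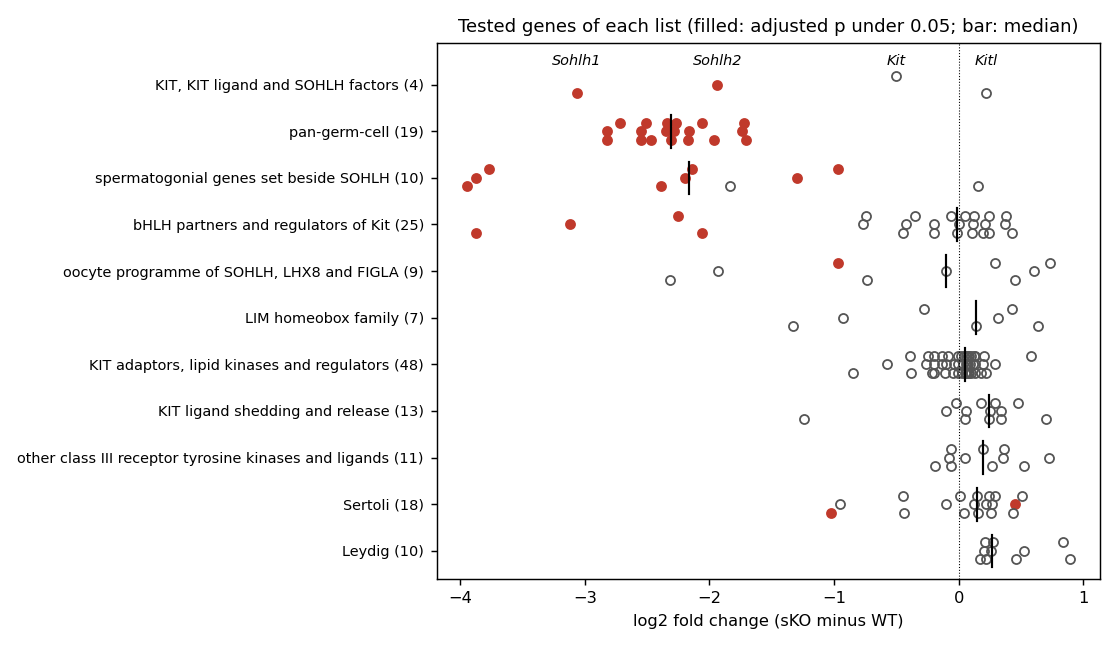
Log2 fold change of sKO against WT (horizontal axis) for the tested genes of each list shown, with the number tested in brackets. Each point is a gene, filled where the adjusted p is under 0.05, and the bar is the list's median, left out in the top row. The mast cell, melanocyte, macrophage, endothelial, stromal and erythroid lists are not shown. Sohlh1 (−3.07) and Sohlh2 (−1.94) lie far to the left with the germ cell genes, Kit (−0.51) lies between these and 0, and Kitl (0.22) lies just above 0.

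The genes most alike to each member over the 6 libraries were found by the root mean square difference of log2 CPM, each gene centred on its own mean, among 12975 named genes of at least 1 CPM outside the lists. For Sohlh1 they were Piwil1 (0.176), Luzp4 (0.259) and Mageb4 (0.261), and for Sohlh2 Trap1a (0.0877), Hmga1 (0.100) and Grb7 (0.118). For Kit they were Setdb2 (0.0613), Bcl11a (0.0861) and Kctd15 (0.105). For Kitl they were Ino80c (0.0193), Xk (0.0223) and Frem1 (0.0274). These are descriptions over 6 libraries that share their depth and subsets.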

How the data were processed

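Polyadenylated RNA of 6 whole testis libraries was sequenced, according to the labels. A single deposited table holds expected counts for each gene, as the authors estimated them; 19.4% of values are not whole. The names fastp, STAR, RSEM and mm39 appear in the submitters' processing notes, while annotation and use of strand are not given there. Libraries were grouped by title (2 WT, 4 sKO), although the design text speaks of 3 per group. Replicates differed by more than sampling noise (chi-square per gene 4.08 to 24.7), and none were merged. Symbols came from GENCODE M21 (GRCm38) for 90.5% of identifiers. Transcript and exon lengths are from the same annotation.

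Counts were rounded, filtered with filterByExpr (minimum count 10), scaled by TMM and tested by edgeR's quasi-likelihood test (edgeR 4.0.16, R 4.3.3), with two-sided p-values adjusted by Benjamini-Hochberg across the whole tested table and called under 0.05. SE is the log2 fold change over the root of F, and intervals use the fit's degrees of freedom. Log2 CPM carry a prior count of 2, and log2 ratios add 0.5 to each count. DESeq2 1.42.0 and limma 3.58.1 (voom) were alternatives. The steps were tested on simulated data.

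The members, lists and tests were chosen with earlier results of these data known. In each list up to 4 genes with the smallest adjusted p under 0.05 were named or, with none, the 2 most abundant. A gene that this rule names is not reported here. Of the marker genes, Gcna had no match and was not used here. The subset term and single subsets were added after seeing the data.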

Additional observations from a re-analysis of the deposited data

Results flagged for a closer look

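Among 38 sets of 4 sKO values, 3 held a library far from the other three by a gap test at the 95% level, where chance flags about 1 in 20. The summed erythroid genes were at 711 CPM in sKO-4, against 514 CPM in the next library. Tfap2c was at 0.231 CPM in sKO-4 against 0.116 CPM in the next, on 4 and 2 counts. Lhx9 was at 87.2 CPM in sKO-2 against 77.0 CPM in the next. None of the 6 KIT and SOHLH genes was flagged in this way.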

How the results depend on the processing

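Over all genes 430 passed the threshold; 797 did with DESeq2, 2411 with the library subset as a term and 1340 in subset 1 alone, while leaving out single libraries gave 3 to 232. The Sohlh1 log2 fold change ran from −3.32 to −2.80 and that of Sohlh2 from −2.05 to −1.82 over left-out libraries, and of these only leaving out WT-1 lost both calls; that of Kit ran from −0.70 to −0.32 (0.717 is the highest edgeR adjusted p) and that of Kitl from 0.17 to 0.23. With the subset term, which was drawn from these same counts, Kit (−0.50) and Kitl (0.22) had an adjusted p under 0.05. In subset 1 alone, where WT has 1 library, the Kit log2 fold change was −0.71. With library sizes set to the summed germ cell genes, which shifts the median of all genes by 2.37, Kit was called in the opposite direction (1.87, edgeR adjusted p = 6.20e-05), Kitl was called higher (2.60, 1.74e-06), and the calls of Sohlh1 (−0.74, 0.148) and Sohlh2 (0.38, its sign turned, 0.413) were lost; by construction these are changes against the germ cell sum. DESeq2, limma-voom, RLE and upper-quartile factors, Sertoli library sizes, both other count filters and unrounded counts changed no call of the 4 genes. The log2 ratio of Kitl to the Sertoli sum ran from −0.11 (without WT-2) to 0.21 and was −0.039 in subset 1 alone; the other 6 ratios kept their direction in all 10 alternatives. Lhx8 and Figla were under the count filter and have no tested value. Depth limits these 2 genes and the sKO values of Sohlh1.

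Numbers 1 and 2 occur in both groups, and the correlation of deviations over genes was 0.416 for number 1 and −0.441 for number 2. With 2 WT libraries, the deviations of WT-1 and WT-2 from their mean are mirror images, and sKO-1 and sKO-2 lie in the same subset. These correlations therefore cannot decide whether equal numbers are paired. With the replicate number as a block, 864 genes passed, and the log2 fold changes were −0.54 for Kit, 0.20 for Kitl, −2.99 for Sohlh1 and −2.0 for Sohlh2, with no call changed among them. The other numbers occur only in sKO, so these fold changes rest on WT-1 and WT-2 against sKO-1 and sKO-2.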

Other observations

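Mast cells depend on KIT, and the protease transcripts Tpsb2 and Cma1, picked from 10 listed mast cell genes, were highest in sKO-3 among the sKO libraries. The summed level of those 10 genes was not, at 25.4 CPM in sKO-3. It was 27.2, 26.1 and 20.3 CPM in sKO-1, sKO-2 and sKO-4. The tryptase gene Tpsb2 was at 1.77 and 2.99 CPM in WT-1 and WT-2, at 1.21 CPM in sKO-3, and at 0.265, 0.214 and 0.231 CPM in sKO-1, sKO-2 and sKO-4. The chymase gene Cma1 was at 1.71 and 4.39 CPM in WT, at 2.02 CPM in sKO-3 and at 0.582, 0.321 and 0.231 CPM in the same 3 other sKO libraries. Neither passed the main test (edgeR adjusted p = 0.177 and 0.337). The Tpsb2 values of sKO-1, sKO-2 and sKO-4 and the Cma1 value of sKO-4 lie near the level of 3 counts, 0.159 to 0.173 CPM in a single sKO library. Tsc22d3, which encodes the glucocorticoid-induced leucine zipper protein and was listed among the Sertoli cell genes, fell from 57.5 ± 6.42 CPM (SD, n = 2) to 28.2 ± 2.21 CPM (SD, n = 4; −1.03, SE 0.12, edgeR adjusted p = 0.0110). It was the only one of the 18 Sertoli cell genes called lower, and Amh the only one called higher; with the library subset as a term 3 were lower and 6 higher. These genes were named after their values were seen. Over all tested genes the main test called 2.30% lower and 0.124% higher, and the subset term 8.65% and 4.97%.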
